A study of Mus musculus with 13 samples.

Results

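Iron-sulfur clusters are small cofactors of iron and sulfide that carry electrons, bind substrates or hold the shape of enzymes. In mitochondria the cysteine desulfurase Nfs1 supplies the sulfur, the cluster is built on the scaffold Iscu, and Glrx5 passes it on to other proteins. A cytosolic machinery then loads the enzymes of the cytosol and nucleus, and exposed clusters can be broken down by oxygen and its radicals. The 8 genes described here are these 3 assembly genes and 5 genes of proteins that carry a cluster outside the respiratory chain. The latter are Aco1 (cytosolic aconitase), Ppat (first committed enzyme of purine synthesis), Dph1 and Dph2 (first step of diphthamide synthesis) and Nthl1 (a DNA repair glycosylase). All 8 were found by their symbols among the 32544 rows of the count table, and 6 passed the filter on low counts that left 12496 genes for testing.

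The libraries were made by Quant-seq, which reads the 3′ end of polyadenylated RNA, from whole lung of wild-type C57BL/6J males bought at 7 weeks of age. The mice breathed 21% oxygen (normoxia, 7 libraries) or 80% oxygen (hyperoxia, 6 libraries) for 5 days, and the lungs were flushed with cold buffer and frozen. Both groups shared strain, sex, genotype and supplier. The labels do not say that each library came from a different animal, so the p-values measure the spread between these samples. Total counts ran from 1607111 to 3387736 in normoxia and from 2029006 to 4540288 in hyperoxia. Alveolar type 2 markers such as the surfactant genes summed to 12913.5 to 23946.1 CPM, counts scaled to a common library total, in normoxia and 3439 to 7532 CPM in hyperoxia, so these markers were present in every library but lower in hyperoxia in 6 of 9 genes. Hyperoxia 1 stood apart from the rest, with a mean correlation of log2 CPM with the other libraries of 0.779, whereas the other 12 libraries had means between 0.886 and 0.919. Calls of members and pathway genes that changed when this library was left out are given with and without it. Calls of cell type markers are given with all 13 libraries only, though some of them also changed without it.

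None of the 6 tested members passed the test for a difference between hyperoxic and normoxic lung (edgeR quasi-likelihood test, threshold 0.05 on the adjusted p), while 22.6% of all tested genes did. All 6 had overlapping groups, while in 10.8% of all tested genes every hyperoxia library lay on one side of every normoxia library. The count of members called was also 0 with DESeq2, limma-voom and limma on the deposited log CPM values. In the edgeR fit, 0 members had an unadjusted p under 0.05. Their log2 fold changes ran from −0.38 for Iscu to 0.54 for Dph2, with a median of 0.023, against a median of −0.030 over all genes tested. The intervals given below show how large a change the libraries still allow. In whole lung, fewer cells of a type and less RNA per cell cannot be told apart.

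**Figure D1:**
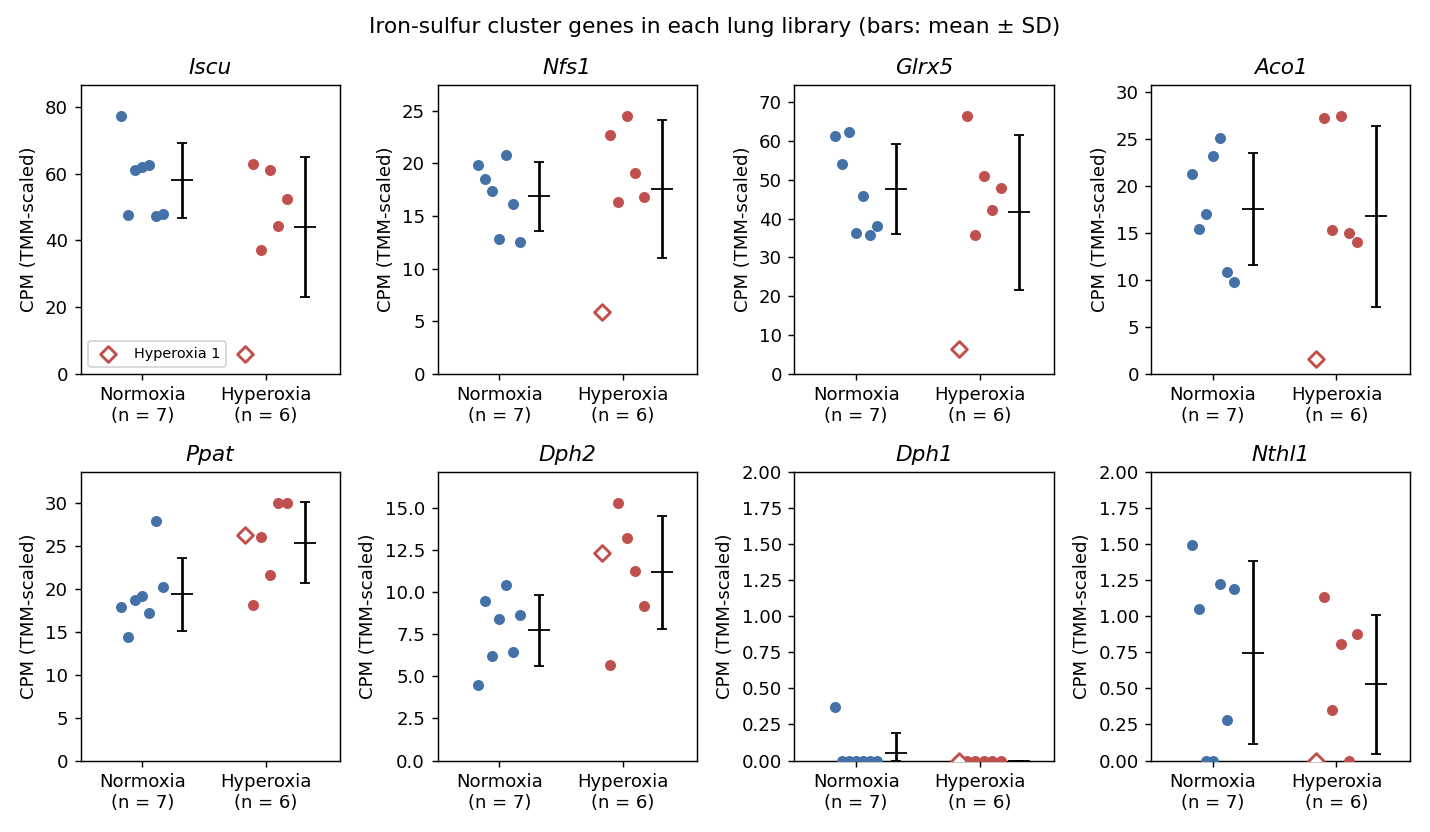
Level of each of the 8 member genes in CPM (vertical axes, TMM-scaled, each panel with its own scale from 0) in 7 normoxia and 6 hyperoxia libraries, with the mean and SD beside the points. The open diamond is Hyperoxia 1, which lies below every other library for Iscu, Nfs1, Glrx5 and Aco1 but among the other hyperoxia libraries for Ppat and Dph2.

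The assembly core was led by Iscu, the scaffold on which the cluster is put together (chromosome 5, GRCm38, 113772748 to 113778288, plus strand). Its level ranged from 47.4 to 77.3 CPM in normoxia, with a median of 61.2 CPM, and from 5.90 to 62.7 CPM in hyperoxia, with a median of 48.4 CPM. Apart from the single low library, Hyperoxia 1, the hyperoxic libraries ran from 37.2 to 62.7 CPM, so that the groups overlapped in part. The means were 57.9 ± 11.1 CPM (SD, n = 7) and 44.0 ± 21.0 CPM (SD, n = 6), a log2 fold change of −0.38 (standard error, SE, 0.33, 95% interval −1.08 to 0.31, edgeR adjusted p = 0.443). Without Hyperoxia 1 the log2 fold change was −0.15 (95% interval −0.50 to 0.20, edgeR adjusted p = 0.528).

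Nfs1, which frees sulfur from cysteine (chromosome 2, 156123639 to 156144186, minus strand), stood between 12.5 and 20.8 CPM in normoxia, with a median of 17.3 CPM. In hyperoxia it ranged from 5.90 to 24.5 CPM, with a median of 17.95 CPM. The log2 fold change was 0.079 (SE 0.26, 95% interval −0.47 to 0.62, edgeR adjusted p = 0.859), and 0.26 without Hyperoxia 1 (edgeR adjusted p = 0.313). The groups overlapped, and the hyperoxic libraries reached both below and above the normoxic range. The first bases of Nfs1 overlap the start of Romo1, which encodes a mitochondrial inner membrane protein, by 148 bases on the opposite strand, and its 3′ end lies in Gm28036, a gene on the same strand that had no count in any library.

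Glrx5, the mitochondrial glutaredoxin that receives the finished cluster (chromosome 12, 105032688 to 105042906, plus strand), ranged from 35.7 to 62.5 CPM in normoxia, with a median of 45.95 CPM. The hyperoxic range was 6.43 to 66.5 CPM, with a median of 45.0 CPM. The medians were thus close, and both the lowest and the highest library belonged to hyperoxia. The log2 fold change was −0.19 (SE 0.33, 95% interval −0.88 to 0.51, edgeR adjusted p = 0.734) and turned to 0.044 without Hyperoxia 1 (95% interval −0.35 to 0.44, edgeR adjusted p = 0.885).

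Aco1 encodes a protein with 2 forms. With its cluster it is cytosolic aconitase, and without the cluster it is iron regulatory protein 1, which binds hairpins called iron-responsive elements in messenger RNAs of iron metabolism. Its gene (chromosome 4, 40143081 to 40198338, plus strand) was read at 9.81 to 25.1 CPM in normoxia, with a median of 17.01 CPM, and at 1.61 to 27.5 CPM in hyperoxia, with a median of 15.15 CPM. The groups overlapped, and Aco1 had the widest spread of the tested members, with a coefficient of variation of 34.0% in normoxia and 57.6% in hyperoxia. The log2 fold change was −0.034 (SE 0.395, 95% interval −0.87 to 0.80, edgeR adjusted p = 0.965) and 0.21 without Hyperoxia 1 (95% interval −0.36 to 0.77, edgeR adjusted p = 0.605).

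The hairpins that the cluster-free Aco1 protein binds were read from the GENCODE M21 transcripts of the 11 listed target genes. The search took C, then 5 bases, then the loop CAGTGN, then 5 bases that pair with the first 5 (G with T allowed), on the transcript strand, and kept matches in untranslated regions (UTRs). It matched 6 of the 11 genes, which were listed as known targets, so that the matches are a description and no finding. For scale, 1.34% of 21877 protein-coding genes held a match anywhere in a transcript. Sites of 4 genes, each within 1 exon, are shown with the loop in capitals, to show the element by which these genes came to be listed as targets. They lie in the 5′ UTR of Fth1 (chr19:9982732-9982761, plus strand), Ftl1 (chr7:45459778-45459807, minus strand) and Slc40a1 (chr1:45925464-45925493, minus strand), and in the 3′ UTR of Tfrc (the first of 4 matches, chr16:32631219-32631248, plus strand).
Fth1: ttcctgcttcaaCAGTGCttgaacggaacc
Ftl1: gtcttgcttcaaCAGTGTttgaacggaaca
Slc40a1: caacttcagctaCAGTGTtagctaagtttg
Tfrc: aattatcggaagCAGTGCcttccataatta

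With all 13 libraries these 4 messenger RNAs did not pass the test, and without Hyperoxia 1 Fth1 did. Binding of the Aco1 protein to the hairpins was not measured, and these RNA levels are not a reading of it. The ferritin chains that store iron, Fth1 and Ftl1, had log2 fold changes of 0.35 (SE 0.47) and 0.52 (SE 0.575), with edgeR adjusted p-values of 0.646 and 0.558. In Hyperoxia 1 they stood at 3.69% and 5.32% of the mean of the other 5 hyperoxic libraries, and for Ftl1 the lowest normoxic library, at 48.5 CPM against a normoxic median of 738 CPM, was as low as the 50.4 CPM of Hyperoxia 1. Without that library Fth1 was higher by 0.61 on the log2 scale (95% interval 0.18 to 1.04, edgeR adjusted p = 0.0318), and Ftl1 was at 0.79 (edgeR adjusted p = 0.189). The iron exporter Slc40a1 was at 0.46 (edgeR adjusted p = 0.120) and the transferrin receptor Tfrc at −0.11 (edgeR adjusted p = 0.751). Of the 13 tested genes in the list of iron regulatory proteins and their targets, Aco1 among them, 1 was lower and 0 were higher, against 10.8% lower and 11.8% higher among all genes tested. The lower gene was Epas1, the hypoxia-inducible factor HIF-2α, which was read at 848.7 to 1280 CPM in normoxia and 122 to 699.5 CPM in hyperoxia without overlap (log2 fold change −1.09, SE 0.29, edgeR adjusted p = 0.0134). Endothelial markers, among the cells known for Epas1, were lower in 3 of 8 tested genes, with summed levels of 3336 to 5304 CPM in normoxia and 1408 to 5045 CPM in hyperoxia, and their part in the result was not tested. Epas1 had no match to the hairpin pattern used here.

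Ppat, the amidotransferase that commits ribose phosphate to purine synthesis (chromosome 5, 76913249 to 76951578, minus strand), stood at 14.3 to 27.9 CPM in normoxia, with a median of 18.6 CPM. In hyperoxia it was at 18.1 to 30.0 CPM, with a median of 26.2 CPM. The groups overlapped from 18.1 CPM (Hyperoxia 2) to 27.9 CPM (Normoxia 6), and the highest 2 libraries were hyperoxic. The means were 19.3 ± 4.2 CPM (SD, n = 7) and 25.3 ± 4.71 CPM (SD, n = 6), a log2 fold change of 0.39 (SE 0.185, 95% interval −0.0077 to 0.78, edgeR adjusted p = 0.153). With single libraries left out it ran from 0.34 to 0.51, with edgeR adjusted p-values from 0.0570 to 0.268. Ppat and Paics, a later enzyme of the same pathway, start head to head and overlap by 272 bases on opposite strands. No source says that strand was used in counting, so reads in that overlap cannot be told apart. The overlap lies at the starts of both genes, away from the 3′ ends that Quant-seq reads.

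Dph2, a subunit of the enzyme that starts the diphthamide modification of elongation factor Eef2 (chromosome 4, 117888643 to 117892032, minus strand), was read at 12 to 49 counts a library. Its level was 4.48 to 10.4 CPM in normoxia, with a median of 8.41 CPM, and 5.67 to 15.3 CPM in hyperoxia, with a median of 11.8 CPM. The 4 highest libraries were all hyperoxic, and the lowest hyperoxic library, Hyperoxia 2, lay within the normoxic range. The log2 fold change was 0.54 (SE 0.26, 95% interval −0.018 to 1.10, edgeR adjusted p = 0.158). With single libraries left out it ran from 0.46 (Hyperoxia 3) to 0.70 (Hyperoxia 2), with edgeR adjusted p-values from 0.0557 to 0.254.

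Its partner Dph1 was close to unmeasured, with 1 count in Normoxia 1 and 0 counts in the other 12 libraries. A count of 0 allows up to 0.656 to 1.84 CPM, depending on the library, taking 3 counts as the limit (counting error only). Dph1 lies on chromosome 11 from 75177643 to 75191241 on the minus strand, and its 3′ end, where Quant-seq reads fall, lies inside Ovca2, a gene on the same strand that shares 1193 bases with it. Ovca2 had 28 to 103 counts in normoxia and 87 to 147 counts in hyperoxia, a log2 fold change of 0.61 (SE 0.21, edgeR adjusted p = 0.0451). Reads from the 3′ ends of these 2 genes could have been assigned to either, so that the level of Dph1 is uncertain and the value of Ovca2 may include it. The call of Ovca2 held in 3 of the 13 fits that left out 1 library, and not in the one without Hyperoxia 1.

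Nthl1, which removes oxidised pyrimidines from DNA (chromosome 17, 24632680 to 24638837, plus strand), had 0 to 4 counts in every library, in all 14 counts in normoxia and 11 in hyperoxia. Counts were present in 5 of 7 normoxic and 4 of 6 hyperoxic libraries. No difference was detectable at this depth, and no fold change is given for Dph1 or Nthl1.

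**Figure D2:**
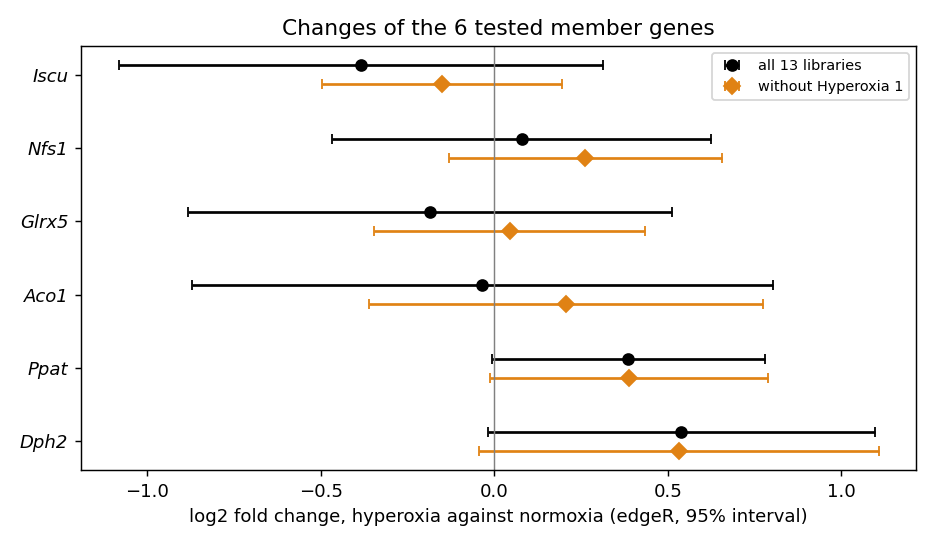
Log2 fold change between hyperoxia and normoxia with its 95% interval (horizontal axis, edgeR) for the 6 tested members, from all 13 libraries (circles) and without Hyperoxia 1 (diamonds). Every interval includes 0, and those of Iscu, Nfs1, Glrx5 and Aco1 are narrower without Hyperoxia 1.

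The low values of Iscu, Nfs1, Glrx5 and Aco1 all came from Hyperoxia 1. There Iscu had 11 counts, Nfs1 11, Glrx5 12 and Aco1 3, while the other hyperoxic libraries had at least 107, 47, 103 and 44 counts. Relative to the mean of the other 5 hyperoxic libraries, Hyperoxia 1 held 11.4% of the Iscu level, 29.7% of Nfs1, 13.2% of Glrx5 and 8.13% of Aco1. Ppat and Dph2 were not low in that library, at 104% and 113%. Hyperoxia 1 was the lowest of the 13 libraries for 4 of the 6 tested members, 6 of the 17 other tested genes of mitochondrial cluster assembly and 7 of 12 matrix enzymes without a cluster, against 31.8% of all tested genes. For cytosolic cluster assembly it was the lowest library in 4 of 13 genes and the highest in 7 of 13, against 21.1% highest among all tested genes.

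Markers of several cell types were extreme in the same library. Hyperoxia 1 had the lowest summed level of all 13 libraries for endothelial (1408 CPM), alveolar macrophage (176 CPM) and neutrophil (45.0 CPM) markers and the highest for smooth muscle (822 CPM). The 10 cardiac muscle markers, which in lung samples can come from the muscle around the pulmonary veins, summed to 6.97 CPM in Hyperoxia 1. Their sums were 106 to 326 CPM in normoxia and up to 351 CPM in hyperoxia, and 5 of the 10 were lower in hyperoxia. The 7 club and ciliated cell markers summed to 282 CPM in Hyperoxia 1, up to 10126 CPM in hyperoxia and 14605 to 53246.5 CPM in normoxia, so that every hyperoxic library lay below the normoxic ones, and 3 of the 7 were lower in hyperoxia. None of these markers was at 0 in all libraries. Their part in the member levels was not tested.

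**Figure D3:**
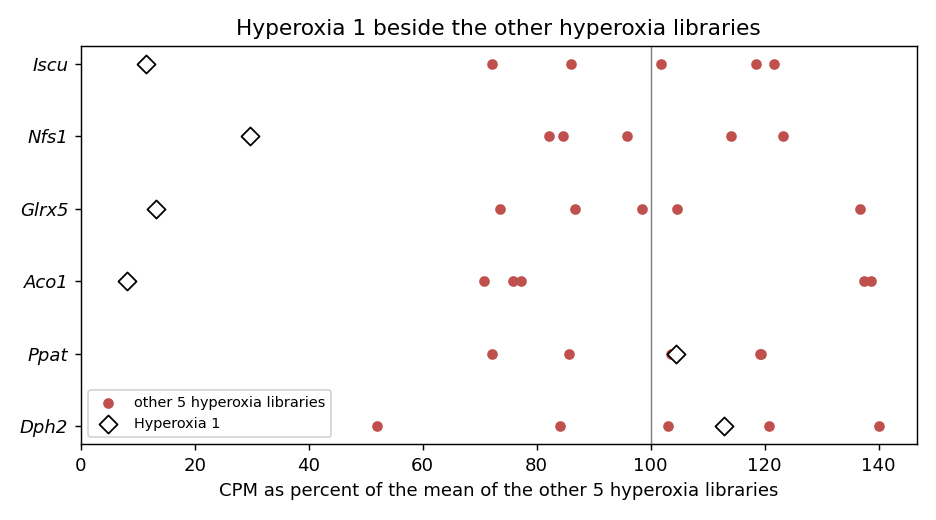
Level of each tested member in the hyperoxia libraries as a percentage of the mean of the other 5 (horizontal axis, from 0), with Hyperoxia 1 as an open diamond and the other 5 as points. Hyperoxia 1 stands at 8.13% to 29.7% for the 4 genes from Iscu to Aco1 and near 100% for Ppat and Dph2.

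Without that library these 4 members were less spread out. The coefficient of variation over the other 5 hyperoxic libraries was 21.1% for Iscu, 18.1% for Nfs1, 23.7% for Glrx5 and 34.9% for Aco1, close to the 19.2%, 19.3%, 24.4% and 34.0% of the 7 normoxic libraries. Profiles over the 13 libraries were also compared. Measured as the root-mean-square difference of standardised log2 CPM, which is 0 for identical profiles, Iscu differed from Glrx5 by 0.302, from Aco1 by 0.366 and from Nfs1 by 0.539, but from Ppat by 1.67. Over the 12 libraries without Hyperoxia 1 the first 3 of these differences were 0.859, 0.810 and 1.14, the last near the 1.17 between Dph2 and Ppat. By the same measure over 13 libraries, the genes nearest to Ppat were Sos2 (0.365), Dpp8 (0.442) and Kitl (0.458), and those nearest to Dph2 were Basp1 (0.416), Surf6 (0.439) and Dapk3 (0.489).

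The library names fall into 2 runs of letters, B to M with 5 normoxic and 3 hyperoxic libraries and O to S with 2 normoxic and 3 hyperoxic libraries. The names do not say what the letters stand for. For Aco1 the log2 fold change was −0.41 within B to M, which holds Hyperoxia 1, and 0.85 within O to S, where the normoxic libraries had 9.81 and 10.9 CPM and the hyperoxic ones 14.0 to 27.5 CPM. Iscu was at −0.77 and 0.14, Glrx5 at −0.48 and 0.34, and Nfs1 at −0.20 and 0.48 in the same order. None of these differences between the letter sets passed a test of the interaction (edgeR adjusted p = 0.569 for Aco1 and at least 0.598 for the other members tested), nor did any gene of the 12496, although 1158 genes had an unadjusted p under 0.05 with edgeR and 1613 with limma-voom, which also called 0. For Ppat the values were 0.48 and 0.16, and for Dph2 0.58 and 0.56.

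Ratios of paired genes within a library do not depend on the scaling between libraries, and 7 pairs were compared by an exact permutation test (two-sided, smallest possible p = 0.000583, 0.5 added to each count). Nfs1 relative to its scaffold Iscu had a mean log2 ratio of −1.77 ± 0.31 (SD, n = 7) in normoxia and −1.13 ± 0.58 (SD, n = 6) in hyperoxia, a difference of 0.64 (exact p = 0.00874, adjusted over the 7 pairs 0.0612). The ratio was 0 in Hyperoxia 1, where both genes had 11 counts, and the difference was 0.41 without that library (exact test, adjusted p = 0.177). It passed an adjusted p of 0.05 without Normoxia 2 (0.71, exact test, adjusted p = 0.0455) and without Hyperoxia 6 (0.74, exact test, adjusted p = 0.0354). Glrx5 relative to Iscu differed by 0.24, Aco1 relative to its paralog Ireb2 by −0.42 and Ppat relative to Paics by 0.34. Without Hyperoxia 1 the difference of Aco1 to Ireb2 turned to 0.065 (exact test, adjusted p = 0.864). With all libraries the exact p-values of these 3 pairs, adjusted over the 7, were 0.251, 0.617 and 0.251. Differences for the pairs of Dph1 with Dph2 and of Nthl1 with the glycosylase Ogg1 are not read as results, since Dph1 and Nthl1 had too few counts.

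Over the 105 tested genes of the 10 pathway lists that are not members, 20 were higher and 4 lower in hyperoxia, which is 19.0% and 3.81%, against 11.8% and 10.8% of all tested genes. In 11 of the 105 every hyperoxia library lay above every normoxia library and in 3 every one lay below, against 5.6% and 5.23% of all tested genes. Markers of other cell types moved between the same groups. B cell markers were lower in 7 of 7 tested genes and T and NK cell markers in 3 of 4, while smooth muscle markers were higher in 3 of 6 and fibroblast markers in 2 of 6. Their part in the pathway changes was not tested. The lists below also count the members that belong to them, and each count is to be read against these shares. All lists were chosen with earlier results of these data known. Their shares and counts therefore describe the lists and are no independent evidence of a change in a pathway. In mitochondrial cluster assembly, which holds Iscu, Nfs1 and Glrx5, 3 of 20 tested genes were higher, near the share of all genes, 0 were lower and 17 did not pass, with a median log2 fold change of 0.29. The largest of these changes was that of Hspa9, the mitochondrial chaperone of the heat shock protein family that releases clusters from Iscu and also folds imported proteins. It went from 110 to 142 CPM in normoxia to 374 to 535.5 CPM in hyperoxia without overlap (log2 fold change 1.80, SE 0.12, edgeR adjusted p = 2.01e-07). Bola3, which serves the late step towards lipoyl synthase, rose by 0.62 on the log2 scale (edgeR adjusted p = 0.00185).

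Without Hyperoxia 1, mitochondrial cluster assembly had 7 of 20 genes higher, against 15.2% of all genes tested in that fit. The 4 genes added were the ferredoxins Fdx1 (0.68) and Fdx1l, now named Fdx2 (0.98), which donate electrons, the acyl carrier protein Ndufab1 (0.49) and the mitochondrial iron importer Slc25a37 (0.66), with log2 fold changes in parentheses and edgeR adjusted p-values of 0.0103, 0.00475, 0.00236 and 0.0307. They were picked out after their values were seen. In the fit with all libraries their adjusted p-values ran from 0.0508 to 0.1.

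Cytosolic cluster assembly had 6 of 13 tested genes higher and 0 lower, while 7 did not pass, with a median log2 fold change of 0.42. Oraov1, now named Lto1, forms with Yae1 the adaptor that brings clusters to Abce1, and it was read at 290.4 to 379.5 CPM in normoxia and 789 to 1453 CPM in hyperoxia. The groups lay far apart (log2 fold change 1.89, SE 0.16, edgeR adjusted p = 1.07e-06). Nubp1, a scaffold of the cytosolic pathway, went from 15.0 to 27.3 CPM in normoxia to 49.1 to 124 CPM in hyperoxia (log2 fold change 1.72, SE 0.21, edgeR adjusted p = 3.04e-05). Glrx3, a cytosolic glutaredoxin that carries clusters, went from 105 to 144 CPM to 213 to 404 CPM (log2 fold change 1.11, SE 0.16, edgeR adjusted p = 1.48e-04). The calls of these 3 genes held in all 13 fits that left out 1 library and in the 8 fits with another tool, scaling, filter or covariate. Mms19, which targets clusters to DNA enzymes, Ciapin1, an electron carrier of the pathway, and Bola2, the partner of Glrx3, were called at log2 fold changes of 0.66, 0.68 and 0.43. Ciapin1 and Bola2 were named after their values were seen. Mms19 stood at 217 CPM in Hyperoxia 1 and at most 96.2 CPM in the other hyperoxic libraries, with a log2 fold change of 0.37 without Hyperoxia 1. Ciapin1 was at 0.52 without that library (edgeR adjusted p = 0.0509). Each of these 3 calls was lost in at least 7 of the 13 fits that left out 1 library.

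**Figure D4:**
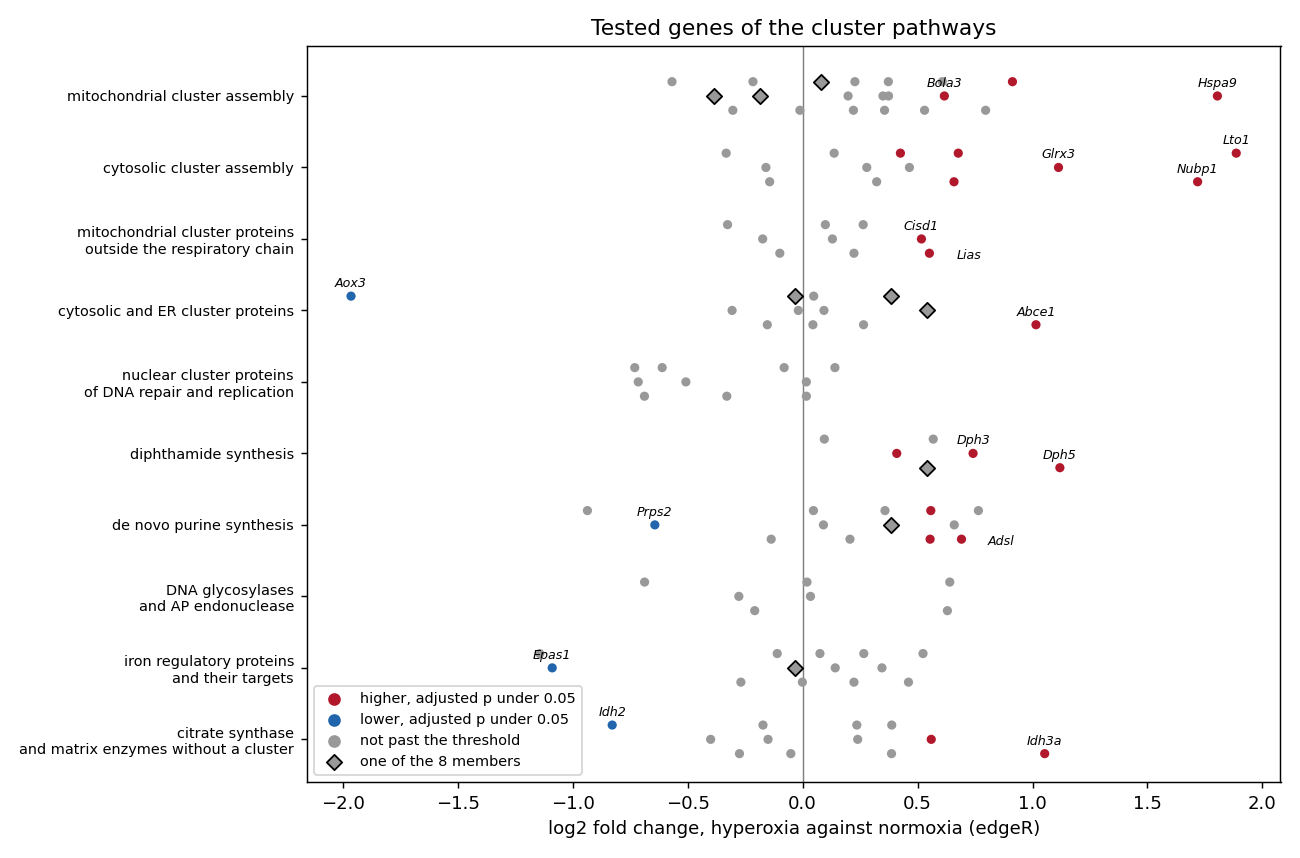
Log2 fold change between hyperoxia and normoxia (horizontal axis, edgeR) of each tested gene in the 10 pathway lists, coloured by whether the adjusted p was under 0.05 and by direction, with members as outlined diamonds. All member diamonds are grey, while Lto1, Hspa9 and Nubp1 stand between 1.72 and 1.89 and Aox3 at −1.96.

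Among the other proteins that carry a cluster, 2 of 9 mitochondrial and 2 of 12 cytosolic and endoplasmic reticulum proteins were called, near the 22.6% of all tested genes. Of 9 mitochondrial proteins outside the respiratory chain, Lias, which makes lipoic acid, and Cisd1, an outer membrane protein, rose by 0.55 and 0.52 on the log2 scale (edgeR adjusted p = 0.00229 and 0.0162). Of 12 cytosolic and endoplasmic reticulum proteins, 3 of them members, Abce1, the ribosome recycling factor, rose by 1.01 (edgeR adjusted p = 0.00395). Cisd2, an endoplasmic reticulum protein also named after its values were seen, was at 0.27 with all libraries (edgeR adjusted p = 0.128) and passed without Hyperoxia 1 at 0.32 (edgeR adjusted p = 0.0475). The level of Abce1 was 49.3 to 84.6 CPM in normoxia and 68.1 to 237 CPM in hyperoxia, and here Hyperoxia 1 was the lowest hyperoxic library. Aox3, an aldehyde oxidase, fell from 125 to 183 CPM to 20.5 to 57.4 CPM without overlap (log2 fold change −1.96, SE 0.22, edgeR adjusted p = 1.69e-05). Of the 10 tested nuclear proteins of DNA repair and replication, 0 were called by edgeR with all libraries (2 had an unadjusted p under 0.05), 0 by DESeq2 and limma on log CPM, and 1 by limma-voom, with a median log2 fold change of −0.42. That gene, Dna2, a nuclease and helicase named after its values were seen, was at −0.71 (edgeR adjusted p = 0.0964). Its level in Hyperoxia 1 was 231% of the mean of the other 5 hyperoxic libraries, and without that library it was lower by edgeR too, at −0.95 (adjusted p = 0.0108). Proliferating cell markers had a median of −0.57 and 0 of 7 tested were called.

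Calls were also made among the pathway neighbours of Dph2 and Ppat. In diphthamide synthesis, which counts Dph2, 3 of 6 tested genes were higher and 0 lower, against 11.8% and 10.8% of all tested genes, with a median log2 fold change of 0.55. Dph5, the methyltransferase of the next step, rose from 16.5 to 32.9 CPM in normoxia to 45.0 to 59.0 CPM in hyperoxia (log2 fold change 1.119, SE 0.185, edgeR adjusted p = 4.75e-04). Dph3, the electron donor of Dph1 and Dph2, rose from 30.7 to 44.1 CPM to 50.9 to 75.7 CPM (log2 fold change 0.74, SE 0.14, edgeR adjusted p = 0.00105). Neither gene had overlapping groups. The remaining called gene of the list was their target Eef2, which is modified and is no enzyme of the synthesis. It was called at 0.41 (edgeR adjusted p = 0.0459), a call that held in 4 of the 13 fits that left out 1 library. In purine synthesis, which counts Ppat, 3 of 13 tested genes were higher and 1 lower, against the same 11.8% and 10.8%. Adsl and Atic, which act after Ppat, rose by 0.69 and 0.56 on the log2 scale without overlap (edgeR adjusted p = 0.00146 and 0.00832), and Adss, on the branch to adenylate, rose by 0.55 (edgeR adjusted p = 0.0189). Prps2, which makes the ribose phosphate that Ppat uses, fell by 0.64 on the log2 scale (edgeR adjusted p = 0.00910). Without Hyperoxia 1 purine synthesis had 5 genes higher and 1 lower, against 15.2% and 13.3% of all genes tested in that fit, with Adssl1 (1.01) and Impdh2 (0.83) added, named after their values were seen (edgeR adjusted p = 0.00633 and 0.00498).

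Of the 7 tested DNA glycosylases 0 were called by edgeR, DESeq2, limma-voom or limma on log CPM (1 had an unadjusted p under 0.05 with edgeR), with log2 fold changes from −0.69 to 0.64. Hyperoxia 1 was the highest of the 13 libraries for 5 of these 7 genes, and without it the median log2 fold change went from 0.019 to −0.18 and the highest of the values above, that of the thymine glycosylase Tdg (named after its values were seen), was 0.28. Among 12 matrix enzymes without a cluster, 2 were higher and 1 lower, near the 11.8% and 10.8% of all tested genes, with a median log2 fold change of 0.092. Sucla2, a succinate-CoA ligase subunit, rose by 0.56 (edgeR adjusted p = 0.00909), Idh3a, an isocitrate dehydrogenase subunit, rose by 1.05 (edgeR adjusted p = 0.0240), and Idh2, the isocitrate dehydrogenase that yields NADPH, fell by 0.83 on the log2 scale (edgeR adjusted p = 0.0226). Idh3a stood at 310 CPM in Hyperoxia 3 and at most 130 CPM in the other hyperoxic libraries, and with Hyperoxia 3 left out the log2 difference was 0.59. The call of Idh3a was lost with limma on log CPM and with the replicate number as a block.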

How the data were processed

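Quant-seq libraries of 13 lung samples were grouped by their labels. The reads were pseudoaligned by the authors (kallisto, run through BioJupies). They deposited raw counts for each gene symbol without a filter, and a second table of log10 values made from CPM plus 1. The labels name the build mm10 and limma 3.54.2, and the annotation release is not given in the sources used here. The main test was edgeR 4.0.16 on the counts (glmQLFit, glmQLFTest, TMM, filterByExpr, no covariate) in R 4.3.3, with Benjamini-Hochberg adjustment over all 12496 genes. Standard errors came from the fold change and F statistic. CPM values are TMM-scaled, and log2 CPM used a prior count of 2. Alternatives were DESeq2 1.42.0, limma 3.58.1 (voom, and log CPM as in the study), library size alone, other filters, letter set, replicate block, and each library left out. The members and lists were chosen with earlier results of these data known. Genes named beside the members were the called genes of each list, at most the 4 with the smallest p, the genes paired in ratios, the 3 nearest to Ppat and Dph2, and genes overlapping a member. Outside this rule, Fth1, Ftl1, Slc40a1 and Tfrc were named for their hairpin sites, and a few more genes, marked so in the text, after their values were seen. Annotation is GENCODE M21 (GRCm38, the build of mm10), matched by symbol. All pairs of libraries of 1 condition differed by more than sampling noise (chi-square per gene at least 3.79 in 36 pairs). Depth limits precision most for Dph1, Nthl1 and Dph2. Same-numbered samples did not deviate together, so the numbers were not taken as pairs. The fits were tested on simulated counts. Results for 2 pathway genes, and the 1 ratio that uses one of them, are not reported here, but they remain in the counts and adjustments.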

Additional observations from a re-analysis of the deposited data

Results flagged for a closer look

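In 78 groups of libraries (the members, the ratios and the called pathway genes, each in both conditions), 10 had a library far from the rest by Dixon's criterion, where chance gives about 1 in 20, or 3.9. Among members, Dph1 stood at 0.373 CPM in Normoxia 1, which is its single count. The log2 ratio of Dph1 to Dph2 was −3.06 in the same library for that reason. The log2 ratio of Nfs1 to Iscu was 0 in Hyperoxia 1, against −1.18 in the next hyperoxic library. The log2 ratio of Ppat to Paics was −0.75 in Normoxia 6. The low values of Iscu, Nfs1, Glrx5 and Aco1 in Hyperoxia 1 did not pass the criterion.

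Among pathway genes, Hspa9 was low in Normoxia 1 at 110.5 CPM and Aox3 was high in Normoxia 4 at 183 CPM. In Hyperoxia 1, Glrx3 stood at 404 CPM and Mms19 at 217 CPM, both the highest of their group. In Hyperoxia 3, Adss stood at 205 CPM and Idh3a at 310 CPM. In all, 3 of the 10 cases were in Hyperoxia 1.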

How the results depend on the processing

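No member was called in any of the 23 alternative fits, and 356 of 388 alternative values of the counts, members and ratios were classed as the same. For fold changes and ratios this meant the same direction and side of the threshold. For counts of genes it meant only a similar number, such as 1934 genes higher without Hyperoxia 1 against 1473 with all libraries. Nothing in the labels pairs the samples, and the correlations of the deviations of same-numbered samples ran from −0.325 to 0.272, with 0 of 6 hyperoxic libraries closest to their own number. With the replicate number as a block, 718 genes were higher and 626 lower in all, and Nfs1 was at −0.062. The pathway genes higher and lower fell to 11 and 1 in that fit. The higher calls lost were those of Bola2, Ciapin1, Mms19, Cisd1, Eef2, Atic, Adss, Idh3a and Sucla2, and the lower ones those of Epas1, Idh2 and Prps2. Within B to M, with 8 libraries, 679 genes were higher and 441 lower, 7 and 1 of them pathway genes, and Nfs1 was at −0.20. Within O to S, Iscu was at 0.14, Glrx5 at 0.34 and Aco1 at 0.85. The letter set as a term put Aco1 at 0.068, and limma on log CPM put Nfs1 at −0.10. With single libraries left out, the log2 fold changes were −0.027 (without Hyperoxia 4) to 0.26 for Nfs1, −0.34 to 0.044 for Glrx5 and −0.22 to 0.21 for Aco1, whose sign changed in 7 such fits. The ratio differences ran from 0.41 to 0.74 for Nfs1/Iscu, −0.69 to 0.065 (without Hyperoxia 1) for Aco1/Ireb2 and −0.37 to 0.56 for Nthl1/Ogg1, which rests on 0 to 4 counts of Nthl1 and is read no further. Aco1 had no value with at least 10 counts in every library. Pathway genes higher ranged from 16 to 27 over the fits that left out 1 library, the highest without Hyperoxia 1. The causes of these shifts were not tested. Depth limits Dph1 and Nthl1, for which no change was detectable.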
